A study of Rattus norvegicus with 102 samples.

Results

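The potassium channel genes of the rat hippocampus were taken as every row of the expression table whose symbol starts with Kcn, apart from Kcne2. This gave 80 of the 26689 genes in the table. They comprised 30 voltage-gated alpha subunits, 14 auxiliary subunits and interacting proteins, 8 calcium- or sodium-activated channels, 14 inward rectifiers and 14 2-pore-domain channels. Poly-A RNA from hand-dissected CA1, CA3 and dentate gyrus (DG) of 34 male Fischer 344 rats was sequenced on the Ion Proton, giving 34 libraries of each subfield. The rats were 10 young animals of 5 to 6 months (Y) and 24 aged animals of 17 to 22 months. The aged animals were divided by their probe score on a spatial water maze into 12 aged-unimpaired (AU) and 12 aged-impaired (AI) rats. All rats had been trained in the maze before tissue was taken, and 1 hippocampus of each was used. The subiculum and CA2 were not collected as samples of their own.

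Potassium channels carry the outward current that repolarizes neurons, sets their resting potential and limits repetitive firing. Voltage-gated channels are tetramers of alpha subunits, some of which are silent alone and modify other alpha subunits, and cytoplasmic beta subunits and KChIP proteins bind to them. Inward rectifiers and 2-pore-domain channels conduct near rest, the first group including the channels opened by G proteins and those closed by ATP, while calcium- and sodium-activated channels shape the afterhyperpolarization.

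Each value is a normalized count, the reads on a gene divided by 1 size factor per library. The libraries held 4478984 to 21467303 reads on genes (median 9755402). Of the 80 genes, 47 were above 0 in every library, 5 (Kcna10, Kcne1, Kcnmb1, Kcnmb3 and Kcnu1) had 0 reads in so many libraries that their median over all libraries was 0, and 70 had a mean of at least 5 and entered the subfield tests. Libraries were checked against markers of their subfield. In 85 libraries, the score for the labelled subfield exceeded those for the other two, and in 17 it did not. Rat identifiers form 2 series, R9 (16 rats) and R1-R2 (18 rats), and the labels do not say what these are. Of these 17 mismatched libraries, 12 were CA3 libraries of R9 rats, where the 10 CA3 and CA2 markers summed to between 3051 and 6491, against 6633 to 9360 in CA3 of R1-R2 rats. The CA1 pyramidal markers summed to a median of 6717 in CA3 of R9 rats and 3846 in CA3 of R1-R2 rats. For named results that involve CA3, the values by series are therefore given where the series differed by the test described below, as is the value without the 17 libraries where a call was lost.

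Sequence before a start of transcription is shown for 6 genes on which the subfield results turn. Kcnj16 and Kcnj2 are neighbours in the genome, as are Kcnk16 and Kcnk5, and the members of each pair differed in opposite directions between CA3 and DG over all libraries. For Kcnq5 and Kcnj4, CA1 and CA3 of R1-R2 rats did not overlap. Of the 80 genes, 53 had an entry in the RefSeq promoter table of GRCr8, the rat assembly. Each line gives the 250 bases before the start that the table uses for the gene, 5′ to 3′ on the strand of the gene, with motifs in capitals. For Kcnj16, Kcnk16 and Kcnq5 this start lies inside the gene as annotated, so that the window is not upstream of its outermost start. The same holds for 30 of the 53 entries. The positions were chr10:96517074-96517323 for Kcnj16, chr10:96559975-96560224 for Kcnj2, chr15:4091441-4091690 for Kcnk16 and chr15:4171375-4171624 for Kcnk5, all on the plus strand. They were chr9:31891282-31891531 for Kcnq5 and chr7:112954548-112954797 for Kcnj4, both on the minus strand.
Kcnj16: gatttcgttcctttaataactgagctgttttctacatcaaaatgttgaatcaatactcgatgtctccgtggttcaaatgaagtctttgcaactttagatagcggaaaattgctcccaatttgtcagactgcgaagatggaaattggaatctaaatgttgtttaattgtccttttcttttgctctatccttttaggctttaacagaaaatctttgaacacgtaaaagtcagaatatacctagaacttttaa
Kcnj2: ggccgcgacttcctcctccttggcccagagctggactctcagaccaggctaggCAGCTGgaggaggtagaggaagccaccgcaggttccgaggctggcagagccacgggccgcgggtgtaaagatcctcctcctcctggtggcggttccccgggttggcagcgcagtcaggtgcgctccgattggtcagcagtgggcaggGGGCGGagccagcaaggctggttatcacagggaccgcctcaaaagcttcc
Kcnk16: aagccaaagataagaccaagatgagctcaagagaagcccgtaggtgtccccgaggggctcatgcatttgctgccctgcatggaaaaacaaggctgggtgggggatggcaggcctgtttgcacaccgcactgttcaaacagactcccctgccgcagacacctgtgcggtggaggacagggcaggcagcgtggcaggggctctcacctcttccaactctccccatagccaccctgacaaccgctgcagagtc
Kcnk5: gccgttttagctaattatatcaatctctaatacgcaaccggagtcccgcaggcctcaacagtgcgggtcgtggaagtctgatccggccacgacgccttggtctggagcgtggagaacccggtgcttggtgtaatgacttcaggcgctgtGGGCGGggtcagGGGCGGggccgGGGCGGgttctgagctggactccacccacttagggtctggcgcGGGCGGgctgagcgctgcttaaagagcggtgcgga
Kcnq5: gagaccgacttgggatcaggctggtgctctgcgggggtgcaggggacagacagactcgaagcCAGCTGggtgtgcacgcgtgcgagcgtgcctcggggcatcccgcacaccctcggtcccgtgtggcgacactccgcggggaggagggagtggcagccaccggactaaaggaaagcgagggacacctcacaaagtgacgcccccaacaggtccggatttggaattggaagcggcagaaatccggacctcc
Kcnj4: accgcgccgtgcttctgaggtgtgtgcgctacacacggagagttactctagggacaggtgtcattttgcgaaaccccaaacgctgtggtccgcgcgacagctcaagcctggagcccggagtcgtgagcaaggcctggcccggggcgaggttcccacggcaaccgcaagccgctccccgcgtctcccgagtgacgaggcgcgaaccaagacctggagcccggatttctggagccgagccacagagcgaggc

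Both strands were searched for the GC box, whose letters are GGGCGG. The TATA box was searched as TATAAA and the cAMP response element as TGACGTCA. Of the E-boxes, one form searched was CAGCTG. The other form of the E-box that was searched for was CACGTG. No motif overlapped another in the 6 sequences. The window of Kcnk5 held 4 GC boxes and that of Kcnj2 1 GC box and 1 CAGCTG. The windows of Kcnk16 and Kcnj16, which lie inside those genes, held none of the letters searched. The window of Kcnj16 was 33.6% G and C and that of Kcnj2 66%, which are not compared because they lie at different kinds of start. Kcnq5 held 1 CAGCTG and Kcnj4 none. Over the 53 promoters of potassium channel genes, 45.3% held a GC box, 1.89% a TATA box (Kcnj13), none the cAMP response element, 28.3% CAGCTG and 3.77% CACGTG. Over all 33469 promoters of the table, the shares were 30.5%, 12.9%, 1.59%, 12% and 5.59%. The 53 were counted with 1 entry per gene and the 33469 with every entry of the table, so the sets are not alike. The median G and C content was 59.6% for the potassium channel genes and 51.2% for all promoters, and these shares are a description of the letters in the window only.

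The first comparison asked how the 3 subfields differ in potassium channel genes. Many of the genes differed between subfields, in both directions and in every family. They were tested with limma on log2(normalized count + 1) over all libraries, with p-values adjusted over all 16374 genes with a mean of at least 5. Between CA1 and CA3, 16 of 70 genes were higher in CA1, against 7.29% of all genes tested, and 8 were lower, against 7.76%. Between CA1 and DG, 15 were higher in CA1, against 14.5% of all genes, and 22 lower, against 14%. Between CA3 and DG, 15 were higher in CA3, against 15.3% of all genes, and 21 lower, against 13.6%. The median log2 fold change of the 70 genes was 0.08, -0.05 and -0.01 in the 3 comparisons, beside -0.01, 0.00 and 0.01 for all genes in the order just given. Without the 17 libraries that did not match their subfield, 32 of 70 genes were called between CA1 and CA3 (21.5% of all genes), 38 between CA1 and DG (27.5%) and 40 between CA3 and DG (29.5%). These are values of dissected tissue, in which fewer cells of a type and less RNA per cell cannot be told apart. The 3 comparisons share their libraries, so that a gene low in CA3 enters 2 of them.

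**Figure D1:**
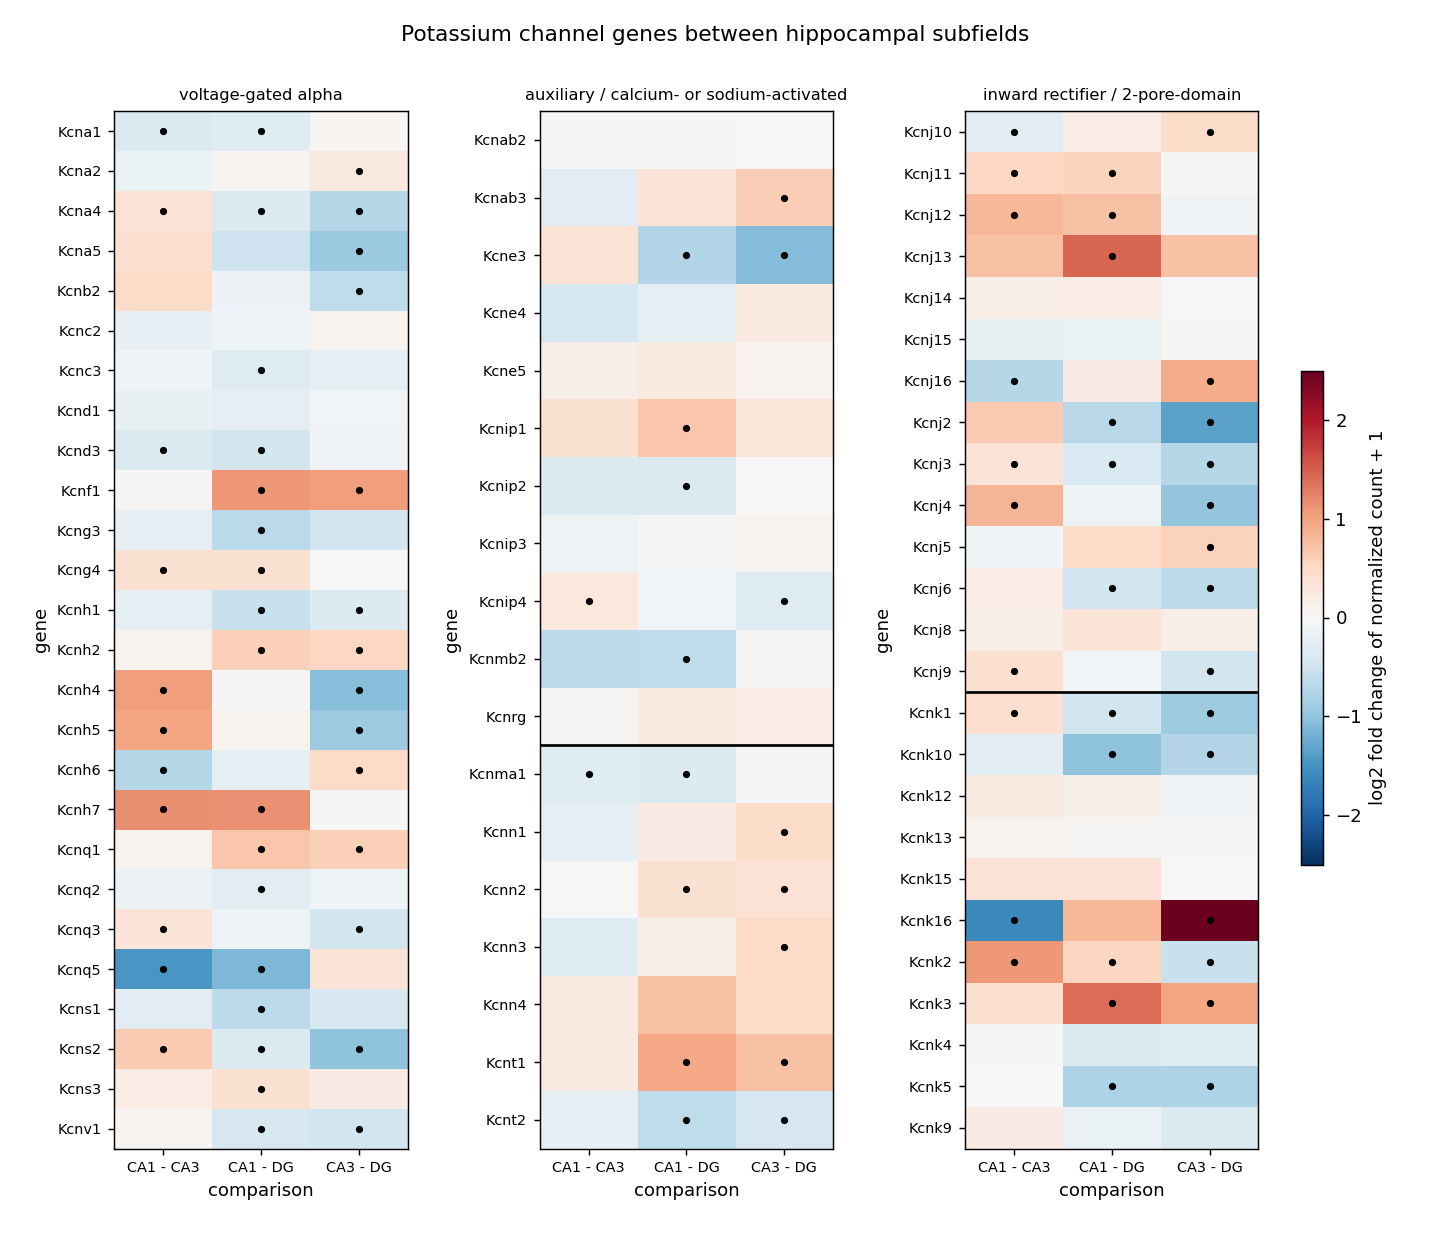
Log2 fold change of normalized count + 1 for 69 of the 70 tested genes, by family (rows) and comparison (columns, first subfield minus second); dots mark an adjusted p under 0.05 in limma over all libraries. Kcnk16 reaches 2.45 between CA3 and DG, and Kcnq5 reaches -1.45 between CA1 and CA3.

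The calls are given by family. Of all genes tested, 7.29% were higher and 7.76% lower in CA1 than in CA3. The shares were 14.5% and 14% for CA1 against DG, and 15.3% and 13.6% for CA3 against DG. Several family counts are near these shares. Of the 14 inward rectifiers tested, 5 were higher in CA1 than in CA3 and 2 lower, 3 were higher in CA1 than in DG and 3 lower, and 3 were higher in CA3 than in DG and 5 lower. Of the 27 voltage-gated alpha subunits tested, 8 were higher in CA1 than in CA3 and 4 lower, 7 were higher in CA1 than in DG and 11 lower, and 5 were higher in CA3 than in DG and 9 lower. Of the 7 calcium- or sodium-activated genes tested, 0 were higher in CA1 than in CA3 and 1 was lower. In the same family, 2 were higher in CA1 than in DG and 2 lower, and 4 were higher in CA3 than in DG and 1 was lower. Of the 11 auxiliary genes tested, 1 was higher and 0 lower in CA1 than in CA3. Between CA1 and DG, 1 was higher in CA1 and 3 lower, and between CA3 and DG, 1 was higher in CA3 and 2 lower. Of the 11 2-pore-domain genes tested, 2 were higher and 1 lower in CA1 than in CA3. Between CA1 and DG, 2 were higher in CA1 and 3 lower, and between CA3 and DG, 2 were higher in CA3 and 4 lower.

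Among the voltage-gated alpha subunits, Kcnq5, an M-current subunit that opens below the firing threshold, was lowest in CA1. Its normalized count was 249 to 1217 in CA1 (median 492), 360 to 3043 in CA3 (median 1548) and 620 to 1764 in DG (median 1170), n = 34 libraries each. Kcnq5 was lower in CA1 than in CA3 (log2 fold change -1.45, SE 0.15, adjusted p = 1.88e-12), and -1.13 versus DG (SE 0.15, adjusted p = 2.5e-09). The ranges overlapped over all rats, but the 2 series differed. In R1-R2 rats, CA3 held 1343 to 3043 and CA1 249 to 691, with no overlap, and the log2 fold change was -2.45. In R9 rats, CA3 held 360 to 1513 and CA1 279 to 1217, and the log2 fold change was -0.32 (adjusted p = 0.31). The difference between the series was -2.13 (SE 0.20, adjusted p = 5.13e-14), and without the 17 mismatched libraries the log2 fold change was -2.05. Between CA3 and DG, Kcnq5 did not pass over all libraries (0.32, adjusted p = 0.0976), with 1.03 in R1-R2 rats and -0.46 in R9 rats.

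The ether-a-go-go family (Kcnh) divided between the subfields. Kcnh7, an erg-type channel, was highest in CA1, at 114 to 658 (median 305), against 48.7 to 407 in CA3 (median 143) and 85.2 to 356 in DG (median 134). Its log2 fold change was 1.17 versus CA3 (SE 0.15, adjusted p = 6.41e-10) and 1.14 versus DG (SE 0.15, adjusted p = 3.55e-10), the ranges overlapping. Against DG it passed in each series alone (0.93 in R9 and 1.33 in R1-R2 rats). Between CA1 and CA3 the Kcnh7 value was 0.57 in R9 rats (adjusted p = 0.0817) and 1.70 in R1-R2 rats, and the series differed (adjusted p = 0.001). Kcnh6, also erg-type, was higher in CA3, at 18.9 to 159 (median 69.3), than in CA1, at 0 to 80.5 (median 45.7), and DG, at 22.2 to 70.5 (median 48.8). Kcnh6 gave -0.72 in CA1 versus CA3 (SE 0.18, adjusted p = 0.00234) and 0.50 in CA3 versus DG (adjusted p = 0.0302). The first was -0.18 in R9 rats (adjusted p = 0.597) and -1.20 in R1-R2 rats for Kcnh6. Kcnh4 and Kcnh5, an elk-type and an eag-type channel, were both lower in CA3. Kcnh4 was at 13.4 to 256 in CA1 (median 96.9), 0 to 215 in CA3 (median 44.8) and 16.8 to 171 in DG (median 96.5). CA3 of R1-R2 rats held the low values, with a median of 32.8, and CA3 of R9 rats had a median of 77.2. The log2 fold change of Kcnh4 was 1.04 in CA1 versus CA3 (adjusted p = 0.000499) and -1.07 in CA3 versus DG (adjusted p = 0.000159), and in R9 rats alone these were 0.38 and 0.12. Kcnh5 was at 7.57 to 123 in CA1 (median 42.2), 0 to 105 in CA3 (median 19.9) and 6.52 to 115 in DG (median 40.6), with log2 fold changes of 0.99 (adjusted p = 0.000808) and -0.91 (adjusted p = 0.0012), and the series did not differ detectably for it (adjusted p = 0.784 and 0.981). Kcnh2, which carries the erg current of the heart, was lower in DG than in both CA fields, by 0.60 versus CA1 and 0.51 versus CA3 on the log2 scale (adjusted p = 2.01e-06 and 4.17e-05), and Kcnh1, the founding eag channel, was -0.56 in CA1 versus DG (adjusted p = 1.26e-07).

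The Kv1 (Kcna) genes, which carry low-threshold and A-type currents, differed among themselves. Kcna1 was at 239 to 1113 in CA1 (median 675), 329 to 1484 in CA3 (median 854) and 525 to 1186 in DG (median 800). Kcna1 gave -0.35 in CA1 versus CA3 over all libraries (SE 0.12, adjusted p = 0.0256), but -1.03 in R1-R2 rats (adjusted p = 2.49e-09) and 0.41 in R9 rats (adjusted p = 0.035), so that the direction depends on the series. Without the mismatched libraries Kcna1 was -0.67. Kcna4, an A-type subunit, was lowest in CA3, with medians of 346, 277 and 435 in CA1, CA3 and DG, and log2 fold changes of 0.36 (adjusted p = 0.00226) in CA1 versus CA3 and -0.71 (adjusted p = 3.32e-10) in CA3 versus DG. In R9 rats alone these Kcna4 values were 0.07 (adjusted p = 0.826) and -0.39 (adjusted p = 0.0248), and in R1-R2 rats the first was 0.61, and the series differed for both. Kcna5 was at 7.78 to 63.9 in DG (median 21) and 0 to 47.9 in CA3 (median 11.9), and gave -0.92 in CA3 versus DG (adjusted p = 0.00504), from -1.80 in R1-R2 rats and 0.06 in R9 rats. Kcnb2, a delayed rectifier, was at 7.66 to 96.1 in CA3 (median 55.9) and 39.1 to 193 in DG (median 79.3), with -0.64 (adjusted p = 0.00724), from -1.19 in R1-R2 and -0.02 in R9 rats, and 0.50 in CA1 versus CA3 (adjusted p = 0.0661). Kcnd3, a somatodendritic A-type subunit, was at 130 to 700 in CA1 (median 353), 236 to 890 in CA3 (median 462) and 239 to 825 in DG (median 482), with -0.36 versus CA3 (adjusted p = 0.0264) and -0.46 versus DG (adjusted p = 0.00183).

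Silent alpha subunits, which form no channel alone and modify other alpha subunits, also differed. Kcns2 was lowest in CA3, at 38.1 to 231 (median 99.7), against 50.6 to 322 in CA1 (median 156) and 92.8 to 457 in DG (median 212). It gave 0.65 in CA1 versus CA3 (SE 0.13, adjusted p = 0.000131) and -1.01 in CA3 versus DG (SE 0.13, adjusted p = 1.15e-09). The series did not differ detectably for either Kcns2 value (limma adjusted p = 0.188 and 0.967). Kcns1 was -0.66 and Kcng3 -0.68 in CA1 versus DG (adjusted p = 0.000776 and 0.0164), with medians of 48.1 and 90.6 for Kcns1 and 26.4 and 38.7 for Kcng3. Kcnf1, also silent alone, was lower in DG. It was at 19.3 to 467 in CA1 (median 162), 3.13 to 496 in CA3 (median 227) and 18.4 to 366 in DG (median 75.4). Kcnf1 gave 1.08 in CA1 versus DG (SE 0.28, adjusted p = 0.00192) and 1.05 in CA3 versus DG (SE 0.28, adjusted p = 0.00253). The second was 2.08 in R9 rats and 0.14 in R1-R2 rats, a difference of -1.93 (adjusted p = 0.00509).

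Of the strongly rectifying Kir2 group of inward rectifiers, Kcnj4 and Kcnj2 had their lowest medians in CA3. Kcnj4 was at 516 to 1376 in CA1 (median 970), 113 to 1097 in CA3 (median 586) and 300 to 1786 in DG (median 1051). In R1-R2 rats, CA3 (113 to 676) did not overlap CA1 (688 to 1376) or DG (880 to 1691), while in R9 rats the 3 subfields overlapped, with medians of 732, 803 and 864. Kcnj4 gave 0.85 in CA1 versus CA3 (SE 0.14, adjusted p = 1.84e-06) and -0.98 in CA3 versus DG (SE 0.14, adjusted p = 1.42e-08). In R9 rats alone these were -0.02 and -0.04, and without the mismatched libraries 1.20 and -1.43. Kcnj2 was at 0 to 237 in CA1 (median 68.4), 0 to 109 in CA3 (median 41.3) and 25.2 to 182 in DG (median 101). It gave -1.34 in CA3 versus DG (SE 0.24, adjusted p = 4.01e-06), -0.70 in CA1 versus DG (adjusted p = 0.02) and 0.64 in CA1 versus CA3 (adjusted p = 0.0537), and its 2 series did not differ detectably (adjusted p = 0.36 in CA3 versus DG). Kcnj12 was higher in CA1, at 46.1 to 264 (median 117), than in CA3, at 0 to 144 (median 73.2), and DG, at 44.8 to 198 (median 66.3), by 0.82 and 0.73 on the log2 scale (adjusted p = 0.00107 and 0.00246). The first Kcnj12 value was 0.24 in R9 rats (adjusted p = 0.541) and 1.34 in R1-R2 rats.

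Of the subunits of G protein-opened channels, Kcnj3 and Kcnj6 were higher in DG than in both CA fields. Kcnj3 had medians of 903, 697 and 1176 in CA1, CA3 and DG, and gave -0.38 in CA1 versus DG (adjusted p = 0.00116) and -0.70 in CA3 versus DG (adjusted p = 4.15e-09). Kcnj6 had medians of 432, 409 and 601, with -0.46 and -0.65 versus DG (adjusted p = 0.000132 and 9.28e-08). The second Kcnj6 value was -1.08 in R9 rats and -0.26 in R1-R2 rats (adjusted p = 0.0856). Kcnj9 was lower in CA3 than in DG (log2 fold change -0.46, adjusted p = 5.79e-05) and did not pass between CA1 and DG. The Kcnj9 value was -0.12 in R9 rats (adjusted p = 0.518) and -0.76 in R1-R2 rats. Kcnj5, of the same group, went the other way between CA3 and DG, at 2.46 to 49 in CA3 (median 14.1) and 0 to 20.3 in DG (median 10.5), with 0.58 (adjusted p = 0.0423), and was not called without the mismatched libraries (0.54, adjusted p = 0.138). Kcnj11, the pore of the ATP-closed channel, was higher in CA1 than in CA3 and DG, by 0.53 and 0.56 on the log2 scale (adjusted p = 0.00296 and 0.00078), with medians of 154, 112 and 95.3.

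Kcnj10 and Kcnj16, which form the glial inward rectifier, were higher in CA3. Kcnj16 was at 119 to 1344 in CA1 (median 232), 118 to 2585 in CA3 (median 431) and 80.9 to 540 in DG (median 226). It gave -0.72 in CA1 versus CA3 (SE 0.18, adjusted p = 0.00163) and 0.93 in CA3 versus DG (SE 0.18, adjusted p = 1.45e-05), and the second passed in each series alone (0.79 in R9 and 1.04 in R1-R2 rats). Kcnj10 was at 349 to 1413 in CA1 (median 962), 705 to 1608 in CA3 (median 1050) and 539 to 1385 in DG (median 755). It gave -0.26 in CA1 versus CA3 (adjusted p = 0.0332) and 0.45 in CA3 versus DG (adjusted p = 4.08e-05), and the first was not called without the mismatched libraries (-0.22, adjusted p = 0.117). That first Kcnj10 value was -0.05 in R9 rats and -0.46 in R1-R2 rats. The 7 astrocyte markers summed to 32543 to 58814 in CA1, 32581 to 49379 in CA3 and 29549 to 45949 in DG, and the 7 oligodendrocyte markers to medians of 100845, 127158 and 66455. None of these markers had a median of 0 in any subfield of either series. Their part in the result was not tested.

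Kcnj13, an epithelial inward rectifier, gave 1.46 in CA1 versus DG (SE 0.47, adjusted p = 0.0132), but was low in most libraries. It was at 0 to 688 in CA1 (median 3.19), 0 to 209 in CA3 (median 2.38) and 0 to 18.1 in DG (median 1.08). The 2 highest values, 688 and 541, were in CA1 libraries of R9 rats (1 AU and 1 AI) whose 6 choroid plexus markers summed to 138379 and 173137, against a median of 236 in CA1. Without the 3 libraries highest in those markers, Kcnj13 gave 0.89 (adjusted p = 0.108) and was not called. The third of these, a CA1 library of an AU rat, held 159, so that leaving all 3 out had to lower the CA1 value. In CA3, the highest value, 209, was in a library of a young R9 rat whose markers summed to 1773. The part of choroid plexus tissue in the result was not tested. Kcnq1, also epithelial, gave 0.69 in CA1 versus DG (adjusted p = 0.0143) and 0.60 in CA3 versus DG (adjusted p = 0.034), with medians of 11.3, 15.4 and 10.3 and highest values of 121, 92 and 20.3. Without the same 3 libraries, Kcnq1 was not called between CA1 and DG (0.49, adjusted p = 0.0781) and was called between CA3 and DG (0.60, adjusted p = 0.0198).

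The 2-pore-domain channels, which carry background current, included the gene with the largest fold change of the subfield comparisons. Kcnk16, a channel best known from pancreatic islets, was at 0 to 38.8 in CA1 (median 4.64), 0 to 113 in CA3 (median 19.8) and 0 to 31.7 in DG (median 1.34). In R1-R2 rats CA3 (6.15 to 113) did not overlap DG (0 to 2.82), where 13 of 18 libraries were at 0. These were few reads, a median of 35.5 reads in CA3 and at most 3 reads in DG. In R9 rats the medians were 10.7, 8.69 and 9.28 in CA1, CA3 and DG, and no difference of CA3 was called (adjusted p = 0.814 to CA1 and 0.768 to DG). Kcnk16 gave 2.45 in CA3 versus DG (SE 0.39, adjusted p = 2.21e-07), from 4.82 in R1-R2 and -0.22 in R9 rats. It gave -1.61 in CA1 versus CA3 (SE 0.39, adjusted p = 0.00121), from -3.28 in R1-R2 and 0.27 in R9 rats. The 3 ependymal markers in the table moved with it, summing to a median of 260 in CA3 and 13 in DG of R1-R2 rats, and to 64.8 and 75.2 in R9 rats. Their part in the result was not tested.

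Kcnk1 was the 2-pore-domain gene with the smallest p between CA3 and DG. It was at 249 to 724 in CA1 (median 345), 165 to 531 in CA3 (median 270) and 238 to 722 in DG (median 508). Kcnk1 gave -0.88 in CA3 versus DG (SE 0.10, adjusted p = 1.3e-12), 0.42 in CA1 versus CA3 (adjusted p = 0.000628) and -0.46 in CA1 versus DG (adjusted p = 0.000111), and the first passed in each series alone (-0.57 in R9 and -1.16 in R1-R2 rats). The second Kcnk1 value was 0.15 in R9 rats (adjusted p = 0.64) and 0.67 in R1-R2 rats. Kcnk2, a mechanically gated background channel, was higher in CA1, at 150 to 1151 (median 248), than in CA3, at 42.2 to 462 (median 121), and DG, at 129 to 291 (median 187). It gave 1.09 versus CA3 (SE 0.15, adjusted p = 1.25e-08) and 0.53 versus DG (adjusted p = 0.00373). Versus CA3, Kcnk2 was 0.49 in R9 rats (adjusted p = 0.0945) and 1.62 in R1-R2 rats. Kcnk10, its close relative, was higher in DG, at 41.9 to 153, than in CA1, at 0 to 83.3 (median 52.8), with -1.01 (SE 0.18, adjusted p = 4.7e-06).

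Kcnk3, an acid-sensitive background channel, was lowest in DG, at 4.99 to 141 (median 23.6), against 21.9 to 265 in CA1 (median 64) and 20.3 to 218 in CA3 (median 46.3). Kcnk3 gave 1.39 in CA1 versus DG (SE 0.19, adjusted p = 7.44e-09) and was also higher in CA3 than in DG (SE 0.19, adjusted p = 2.41e-05). The first was 1.34 in R9 and 1.44 in R1-R2 rats, a difference of 0.10 between the series (adjusted p = 0.899). Kcnk5, also acid-sensitive, was highest in DG, at 24.9 to 112 (median 43.1), against 1.06 to 51.7 in CA1 (median 27.9) and 7.52 to 49.6 in CA3 (median 24.9), with -0.77 in CA1 versus DG (adjusted p = 0.000246) and -0.76 in CA3 versus DG (adjusted p = 0.000252).

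**Figure D2:**
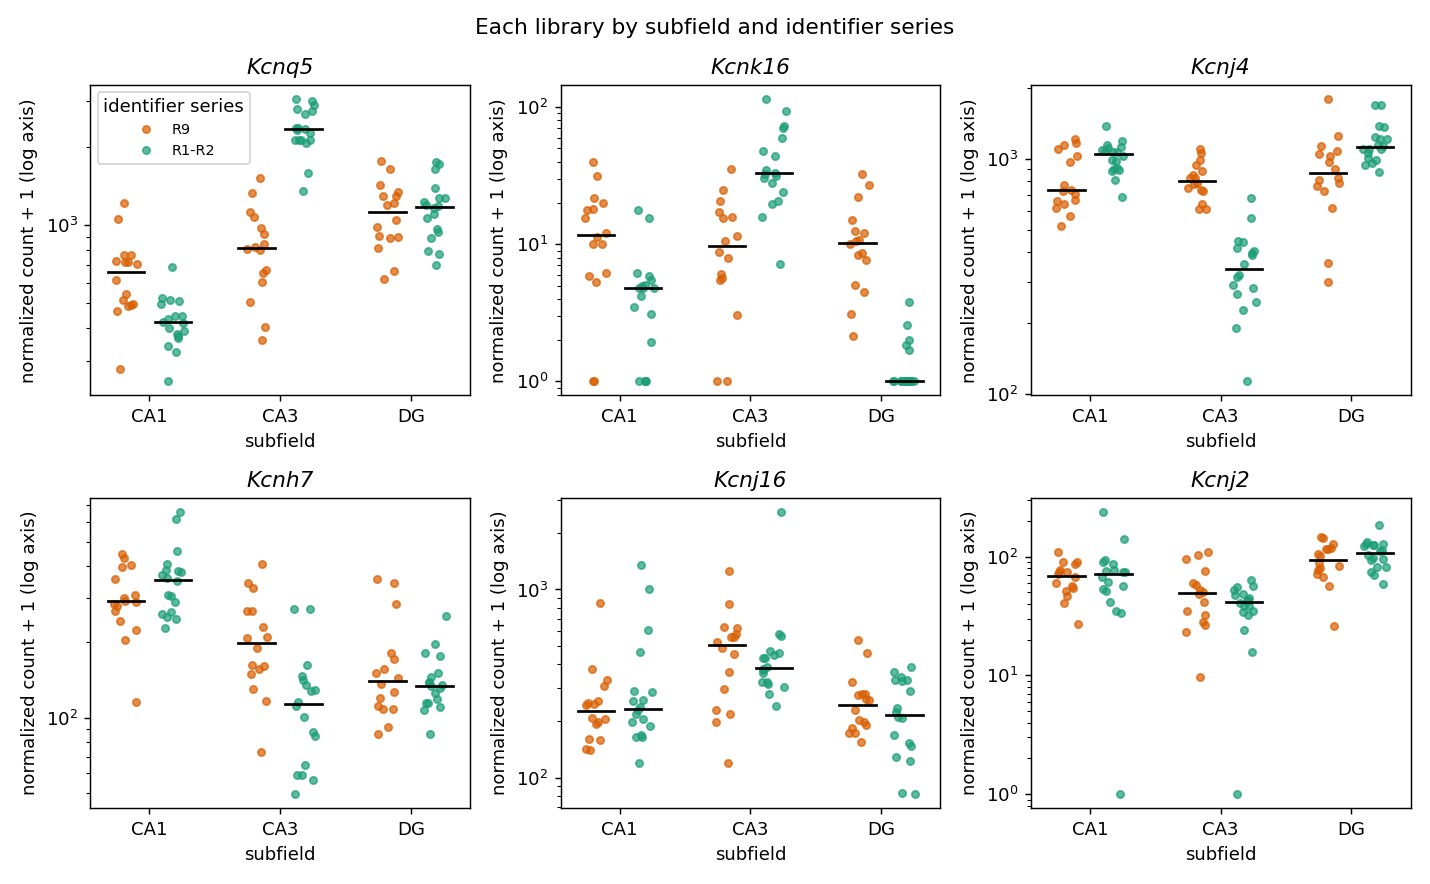
Normalized count + 1 (log axis) of 6 genes in each library by subfield; orange points are R9 rats, green points R1-R2 rats and bars are medians. In R1-R2 rats, Kcnq5 in CA3 (1343 to 3043) lies above CA1 (249 to 691) and Kcnj4 in CA3 (113 to 676) below CA1 (688 to 1376), and in R9 rats the subfields overlap for both genes.

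Over all libraries, the neighbouring genes printed above differed in opposite directions. Kcnj16 was higher in CA3 than in DG (0.93) and Kcnj2 lower (-1.34), each past the threshold. Kcnk16 was higher in CA3 than in DG (2.45) and Kcnk5 lower (-0.76). In R9 rats alone the values of this pair had the same sign, at -0.22 for Kcnk16 and -0.55 for Kcnk5, and neither was called. On GRCr8, 7 pairs of these genes were direct neighbours among protein-coding genes. Kcnj9 and Kcnj10 were another such pair with opposite directions, at 0.40 and -0.26 in CA1 versus CA3 and at -0.46 and 0.45 in CA3 versus DG. Kcnj6 and Kcnj15 differed in another way, Kcnj6 being -0.65 in CA3 versus DG and Kcnj15 0.02 (adjusted p = 0.962). Kcna5 and Kcna1, also neighbours, were -0.92 and 0.04 in that comparison over all libraries, and the series differed for both. The value in R1-R2 rats minus that in R9 rats was -1.86 for Kcna5 and 0.95 for Kcna1 (limma adjusted p = 0.00477 and 2.24e-05). In the remaining pairs, Kcnip1 with Kcnmb1 and Kcna2 with Kcna10, the second gene was under the filter on low values.

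Of the calcium- and sodium-activated channels, Kcnt1 and Kcnt2, the sodium-activated pair, went in opposite directions. Kcnt1 was at 136 to 1272 in CA1 (median 573), 33.7 to 1344 in CA3 (median 491) and 125 to 1125 in DG (median 245), with 0.96 in CA1 versus DG (SE 0.19, adjusted p = 2.89e-05) and 0.74 in CA3 versus DG (SE 0.19, adjusted p = 0.00128). The second was 1.51 in R9 and 0.05 in R1-R2 rats. Kcnt2 was at 110 to 619 in CA1 (median 279), 134 to 992 in CA3 (median 309) and 196 to 639 in DG (median 410), with -0.64 and -0.43 versus DG (adjusted p = 4.53e-06 and 0.00229). The 3 small-conductance genes Kcnn1, Kcnn2 and Kcnn3 were higher in CA3 than in DG, by 0.46, 0.37 and 0.48 on the log2 scale (adjusted p = 0.00014, 0.00293 and 0.00426). Kcnma1, the large-conductance channel, was lower in CA1, at 349 to 999 (median 675), than in CA3, at 524 to 1778 (median 814), and DG, at 586 to 1200 (median 856), with -0.31 and -0.33 (adjusted p = 0.000814 and 0.000122).

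Among the auxiliary genes, Kcne3 was low in every subfield and higher in DG, at 3.33 to 31.1 (median 10.9), than in CA1, at 0 to 14.7 (median 6.19), and CA3, at 0 to 14.1 (median 4.75). It gave -0.74 and -1.09 versus DG (adjusted p = 0.0142 and 0.000198), on a median of 8.5 reads in DG of R9 rats and 11.5 reads in DG of R1-R2 rats. Kcnip1, a KChIP that binds Kv4 channels, was at 0 to 138 in CA1 (median 81.6) and 21.9 to 79.7 in DG (median 45.1), with 0.69 (adjusted p = 0.00311). Kcnab3, a cytoplasmic beta subunit, was at 55.3 to 244 in CA3 (median 131) and 50 to 310 in DG (median 84.4), with 0.61 (adjusted p = 0.000656). Kcnab2, another beta subunit, had medians of 5109, 5285 and 5118 in CA1, CA3 and DG, and log2 fold changes of -0.03, -0.03 and 0.00 in the 3 comparisons (adjusted p = 0.872, 0.828 and 0.997). For Kcnab2 the series differed in both comparisons with CA3. The log2 fold change in R1-R2 rats minus that in R9 rats was -0.56 in CA1 versus CA3 and 0.44 in CA3 versus DG (limma adjusted p = 0.00172 and 0.0167).

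The study itself listed 12 potassium channel genes for CA3, chosen in part on these libraries, so that they are no independent evidence. The symbol Kcnc4 is not among the genes analysed here. Of the other 11, 9 passed between CA1 and CA3, beside 7.29% of all genes higher and 7.76% lower in CA1. Kcnh6, Kcnq5, Kcnj16 and Kcnk16 were higher in CA3 than in CA1, and Kcnh5, Kcnj4, Kcnk1, Kcns2 and Kcnh4 were lower. Between CA3 and DG, 10 passed (Kcnq5 did not), beside 15.3% of all genes higher and 13.6% lower in CA3. Kcnh6, Kcnj16 and Kcnk16 were higher in CA3 than in DG, and Kcnb2, Kcnh5, Kcnj2, Kcnj4, Kcnk1, Kcns2 and Kcnh4 were lower.

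The differences that involve CA3 differed between the identifier series, whereas the difference between CA1 and DG did not detectably. A term for the series in the subfield effect, added after the data were seen, passed for 26 of 70 genes between CA1 and CA3 (14.4% of all genes), for 25 of 70 between CA3 and DG (16.6%) and for 0 of 70 between CA1 and DG (0.165%). Of the 24 genes called between CA1 and CA3, 21 had the same sign in both series. Kcnk16, Kcna1 and Kcnj4 were the 3 whose sign in R9 rats was opposite. Of those 24, 17 were also called in R1-R2 rats alone and 5 in R9 rats alone. Only 1 of the 24, Kcna1, was called in both series, with opposite signs. Of the 37 called between CA1 and DG, 36 had the same sign in both series, Kcnip2 being the exception, and 25 and 20 were called in R1-R2 and R9 rats alone, 13 of them in both. Of the 36 called between CA3 and DG, 33 had the same sign, with Kcnk16, Kcnh4 and Kcna5 opposite in R9 rats, and 23 and 20 were called in R1-R2 and R9 rats alone, 10 of them in both. The shares of all genes called in each series alone are not given here, so these counts are not read as particular to potassium channel genes. The CA3 marker values given above moved with the differences between the series, and their part in those differences was not tested. The methods of the study name a pair of test sites whose numbers of young and aged rats equal those of the 2 series, but the labels tie no rat to a site.

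**Figure D3:**
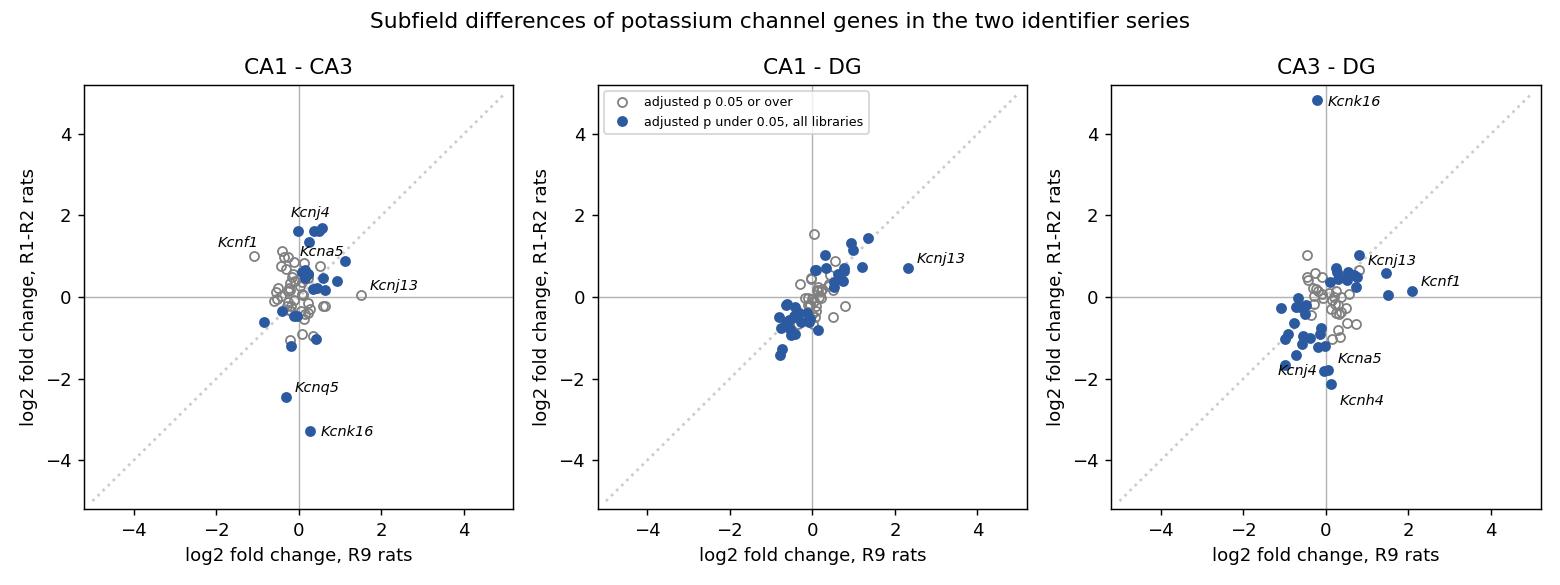
Log2 fold change between subfields in R9 rats (horizontal) and R1-R2 rats (vertical) for each gene; filled points have an adjusted p under 0.05 over all libraries, and the dotted line marks equal values. Between CA3 and DG, Kcnk16 sits at -0.22 and 4.82 and Kcnf1 at 2.08 and 0.14, while between CA1 and DG Kcnj13 sits at 2.31 and 0.71.

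The second comparison asked whether age changes these genes within a subfield, with 24 aged against 10 young rats. None of them passed in any subfield. In CA1, 0 of 70 genes were called (0.0183% of all genes), and 3 had an unadjusted p under 0.05 (3.43% of all genes). In CA3, 0 of 70 were called (0.00607% of all genes), with 0 at an unadjusted p under 0.05 (1.53% of all genes). In DG, 0 of 68 were called (0.0741% of all genes), with 2 at an unadjusted p under 0.05 (8.33% of all genes). On the recovered reads, edgeR and DESeq2 also called 0 genes. The median log2 fold change of the genes was -0.05, 0.04 and 0.05 in CA1, CA3 and DG, beside -0.03, -0.03 and 0.00 for all genes.

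In CA1, the genes with the smallest p were Kcnk16, Kcnj16, Kcnj6, Kcne5 and Kcnq1. Kcnj16 was at 119 to 286 in young (median 203) and 160 to 1344 in aged rats (median 232), with 0.60 (SE 0.27, adjusted p = 0.934). Kcnj6 was at 386 to 581 in young (median 483) and 232 to 641 in aged rats (median 415), with -0.25 (SE 0.12, adjusted p = 0.934), and both Kcnj genes had the same sign in AU and in AI rats (0.54 and 0.66 for Kcnj16, -0.21 and -0.28 for Kcnj6). The groups overlapped for each. Kcnk16 was at 4.08 to 30.3 in young (median 9.82) and 0 to 38.8 in aged rats (median 3.78), with -1.21 (SE 0.53), Kcne5, an inhibitory beta subunit, at 2.04 to 20 and 0 to 26.9, with -0.89 (SE 0.47), and Kcnq1 at 7.17 to 19.2 and 5.32 to 121, with 0.76 (SE 0.41). In CA3, Kcnip3, a KChIP also known as calsenilin, had the smallest p. It was at 302 to 494 in young (median 439) and 288 to 978 in aged rats (median 513), with 0.31 (SE 0.15). Kcne4 gave -0.36, Kcnq3 0.17 and Kcna2 0.18 in CA3, each with an adjusted p of 1.

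In DG, Kcng4, a silent subunit, was at 120 to 202 in young (median 156) and 122 to 430 in aged rats (median 197), with 0.39 (SE 0.15, adjusted p = 0.586). Kcnt2 was at 386 to 638 in young (median 496) and 196 to 639 in aged rats (median 360), with -0.33 (SE 0.15, adjusted p = 0.596). The aged rats spread wider than the young rats for both, and the groups overlapped. Both had the same sign in AU and AI rats alone (0.34 and 0.44 for Kcng4, -0.31 and -0.35 for Kcnt2) and in each series (0.41 in R9 and 0.36 in R1-R2 rats for Kcng4, -0.43 and -0.24 for Kcnt2). Kcnk15, Kcnma1 and Kcnn1 gave 0.21, -0.11 and 0.22 in DG.

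The third comparison asked whether these genes differ with cognitive status, with 12 AI against 12 AU rats in each subfield. None passed in any subfield, and no gene of the whole table did. In CA1, 0 of 70 were called (0% of all genes), and 6 had an unadjusted p under 0.05 (2.08% of all genes), 5 of them higher in AI rats. In CA3, 0 of 69 were called (0% of all genes), with 1 at an unadjusted p under 0.05 (1.61% of all genes). In DG, 0 of 69 were called (0% of all genes), with 5 at an unadjusted p under 0.05 (1.77% of all genes), 4 of them higher in AI rats. edgeR and DESeq2 also called 0 of them. The median log2 fold change in CA1 was 0.13 for the genes and 0.02 for all genes, and in CA3 and DG 0.00 and 0.00, beside -0.02 and 0.00.

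In CA1, Kcnj4 had the smallest p. It was at 568 to 1062 in AU rats (median 732) and 661 to 1376 in AI rats (median 1062), with 0.39 (SE 0.12, adjusted p = 1), and the young rats were at 516 to 1164 (median 1068). The AU median was the lowest of the 3, and all groups overlapped. Kcnf1 was at 19.3 to 309 in AU rats (median 119) and 66.6 to 467 in AI rats (median 247), with 1.11 (SE 0.37), and 53.1 to 377 in young rats (median 198). Kcnk5 spanned 22.8 to 51.7 in AU rats, and in AI rats 1.06 to 34.5, with -0.92 (SE 0.39). Kcna4 gave 0.36 (SE 0.15) and Kcnk9, an acid-sensitive background channel, 0.54 (SE 0.23). Each of these 5 had the same sign in R9 and R1-R2 rats.

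In CA3, Kcna2, a Kv1 subunit of axons, was at 358 to 653 in AU rats (median 525) and 456 to 876 in AI rats (median 624), with 0.34 (SE 0.14). The young rats, at 352 to 674 (median 493), overlapped both aged groups. Kcnj12, Kcnq3, Kcnd3 and Kcnn3 came next, at -1.01, 0.20, 0.36 and 0.48. In DG, Kcnq5 was at 620 to 1390 in AU rats (median 970) and 698 to 1764 in AI rats (median 1280), with 0.40 (SE 0.15). Kcne3 was at 4.51 to 25 in AU rats (median 14.7) and 3.33 to 19 in AI rats (median 7.42), with -0.71 (SE 0.27). Kcnv1, Kcnj16 and Kcnh6 were higher in AI rats in these values, at 0.27, 0.44 and 0.35, without passing. The adjusted p was 1 for every gene named for CA3 and DG.

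**Figure D4:**
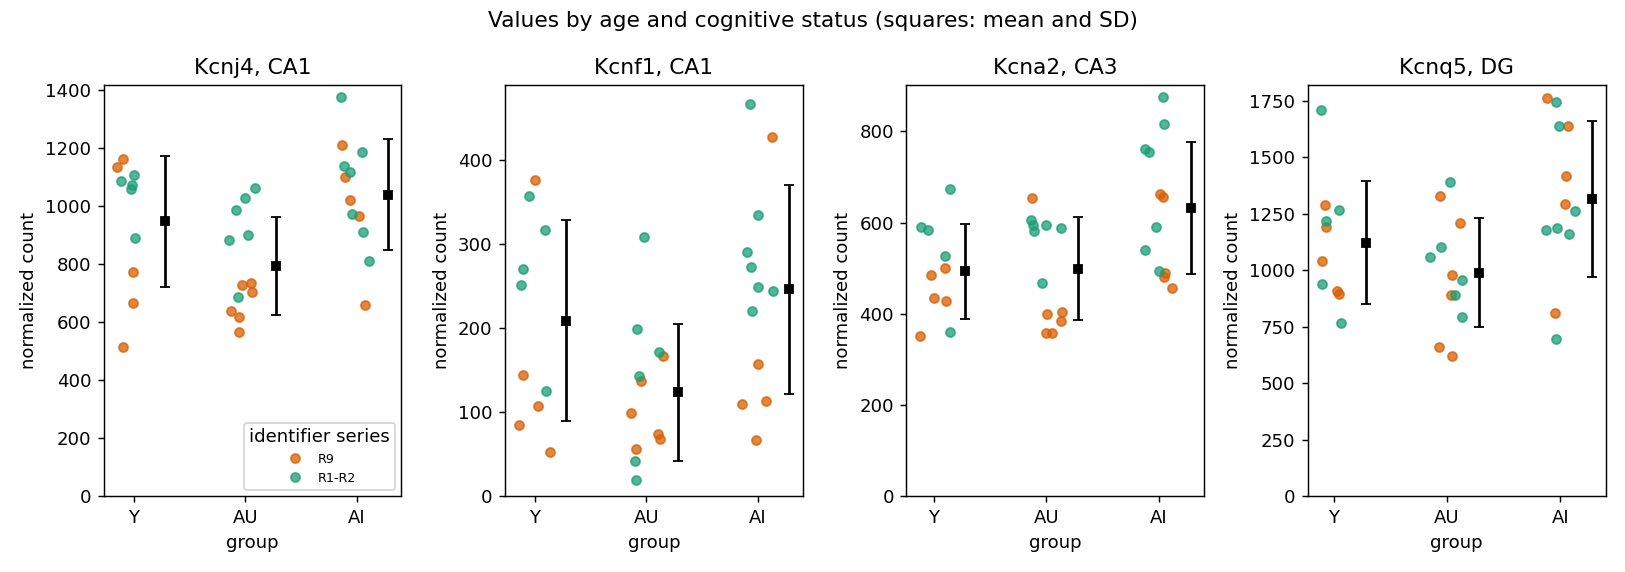
Normalized count in each rat by group for the genes with the smallest unadjusted p in CA1 (Kcnj4 and Kcnf1), CA3 (Kcna2) and DG (Kcnq5); squares and bars are the mean and SD of 10 young, 12 AU and 12 AI rats. The AU and AI ranges overlap in each panel (568 to 1062 and 661 to 1376 for Kcnj4).

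The study named 4 genes with Kcn symbols for cognitive status, again partly on these libraries. Its rule was an unadjusted p on Illumina and then a one-tailed, unadjusted p under 0.05 on the Ion Proton. That rule is not the adjusted p used here. In CA1 of impaired rats, the study reported Kcnk1 as increased and Kcnab2 as decreased. In CA1, Kcnk1 was at 259 to 534 in AU (median 319) and 323 to 724 in AI rats (median 407), with 0.29 (SE 0.15), and it was 0.68 in R9 and -0.03 in R1-R2 rats. Kcnq5 was -0.32 (SE 0.20), Kcnab2 -0.19 (SE 0.12) and Kcnh7 -0.15 (SE 0.19), and each had an adjusted p of 1. Their groups overlapped. The unadjusted two-sided limma p in CA1 was 0.0577 for Kcnk1, 0.111 for Kcnq5, 0.127 for Kcnab2 and 0.449 for Kcnh7. These values do not apply the study's one-tailed rule. A one-tailed p is smaller where the direction is that of the study, which holds for Kcnk1 and Kcnab2. The study also counted Hcn4, outside the Kcn symbols, as a potassium channel increased in impaired rats. Hcn4 gave 1.22 in CA1 (SE 0.47, unadjusted limma p = 0.0153), without passing after adjustment.

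Whether the effects of age and cognitive status differ between subfields was tested on differences within rats. No gene passed for the age effect in CA1 minus CA3 (0 of 70, and 0% of all genes), in CA1 minus DG (0 of 70, 0%) or in CA3 minus DG (0 of 70, 0%). The same held for the effect of cognitive status in CA1 minus CA3 (0 of 70, 0%), CA1 minus DG (0 of 70, 0%) and CA3 minus DG (0 of 69, 0%). The 0 calls are limma counts. At an unadjusted p under 0.05 there were, for age, 0, 3 and 0 genes in the same order, beside 0.857%, 2.63% and 2.35% of all genes. For cognitive status there were 3, 8 and 0 genes, beside 2.68%, 3.11% and 2.04% of all genes. Kcnj4 had the smallest p, for cognitive status in CA1 minus DG, at 0.75 (SE 0.22, adjusted p = 1), followed there by Kcnk1 at 0.53, Kcna4 at 0.46, Kcnq5 at -0.72 and Kcnj14 at -0.46. In CA1 minus CA3, Kcnj12 was 1.34 (SE 0.56, adjusted p = 0.999). For age in CA1 minus DG, Kcnn4 was -1.47, Kcne5 -1.06 and Kcnj16 0.63. For age in CA3 minus DG, Kcns3, a silent subunit, was -0.33 (SE 0.18) and Kcnmb2, a beta subunit of the large-conductance channel, -0.55 (SE 0.44). For cognitive status in CA3 minus DG, Kcnip2, a KChIP, was 0.54 (SE 0.28) and Kcnk13, a 2-pore-domain channel, -0.82 (SE 0.44).

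Genes outside the family that bind or regulate these channels were described from a fixed list of 21, of which 18 were tested. Between CA1 and CA3, 5 were higher and 2 lower, against 7.29% and 7.76% of all genes. Dpp6 and Dpp10, partners of Kv4 channels, went in opposite directions there, at 0.33 and -0.44 (adjusted p = 2.08e-05 and 0.0228). Between CA1 and DG, 4 were higher and 3 lower, against 14.5% and 14% of all genes. Between CA3 and DG, 5 were higher and 6 lower, against 15.3% and 13.6%. Lgi1, a secreted partner of Kv1 channels, was -0.84 in CA1 and -0.84 in CA3 versus DG (adjusted p = 2.15e-09 and 2.11e-09). Pex5l, which binds the Hcn pacemaker channels, was 1.11 and 0.90 versus DG (adjusted p = 5.5e-19 and 1.57e-14). For age and for cognitive status, 0 of 18 passed in every subfield, with 1, 0 and 1 at an unadjusted p under 0.05 for age in CA1, CA3 and DG and 3, 0 and 0 for cognitive status, beside the shares of all genes given above (3.43%, 1.53% and 8.33%, and 2.08%, 1.61% and 1.77%).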

How the data were processed

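Rats were grouped by the sample titles, which give subfield, group and rat. The authors counted poly-A Ion Proton reads on rat genes of the rn5 build and deposited them as 1 table of signal values, normalized by dividing each library by its DESeq2 size factor. The submitters' processing notes list, among other tools, TopHat2, Bowtie2, featureCounts 1.4.4 and DESeq2 1.10.1. Whole reads were recovered from the smallest value of each library for 100% of the values within 0.001, and these recovered reads were used only for edgeR and DESeq2. Positions and neighbours were read from RefSeq GRCr8, a different build, by symbol, so that coordinates are given only for the printed promoters. No gene lengths of the counting annotation were used, so that levels are not compared between genes. Whether counting used strand is not given in the sources used here, so that reads of overlapping or antisense genes and of near-identical copies may be shared.

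Tests used limma 3.58.1 in R 4.3.3 (lmFit, eBayes with trend, two-sided) on log2(normalized count + 1), so that fold changes of low genes are understated, over genes whose mean reached 5 among the fitted libraries. Adjusted p-values are Benjamini-Hochberg over all those genes, with a threshold of 0.05. Effects within rats used the difference of 2 subfields in the same rat. The labels give the rat number, so that it pairs the subfields of 1 animal. The mean correlation of a rat's deviations was 0.06 for CA1 and CA3, 0.10 for CA1 and DG and 0.01 for CA3 and DG. Subfields were compared without the rat as a block, and the paired fit was an alternative. Each sample is a separate rat within a subfield. Marker scores were means of centered log2 values.

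The alternatives tried were another pseudocount (0.5 or 5), the filter left out or raised to 20, TMM rescaling, the quasi-likelihood test of edgeR 4.0.16 and the test of DESeq2 1.42.0 on recovered reads, the series as a covariate, each series alone, AU or AI rats alone, the replicate block and leaving out mismatched libraries. The fit without libraries rich in choroid plexus markers and the test of the series were added after the data were seen. The genes and lists were chosen with earlier results of these data known. Named genes are the 8 with the largest change in each direction among those called for each subfield comparison, the 5 with the smallest p elsewhere, and the genes the study named. A gene named by this rule is not reported here. Genes described beside these were chosen after their values were seen, to fill their family. The tests were checked on simulated data. Python 3.11.15 with numpy 2.4.6, pandas 2.3.3 and matplotlib 3.10.9 was used.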

Additional observations from a re-analysis of the deposited data

Results flagged for a closer look

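The difference between CA1 and CA3 was not the same in the 2 identifier series for 11 of the genes named for it, by the limma term for the series (adjusted p under 0.05). On the log2 scale, the fold change in R1-R2 rats minus that in R9 rats was, for Kcnk16 -3.55, Kcnq5 -2.13, Kcnh6 -1.01, Kcna1 -1.43, Kcnj10 -0.41, Kcnj12 1.11, Kcnj4 1.64, Kcnh4 1.25, Kcnk2 1.13, Kcnh7 1.12 and Kcnk1 0.52. The difference between CA3 and DG was likewise unequal for 9 named genes, and the same quantity was, for Kcnh4 -2.24, Kcnj4 -1.78, Kcna5 -1.86, Kcnk1 -0.59, Kcnt1 -1.46, Kcnf1 -1.93, Kcnk16 5.03, Kcnb2 -1.17 and Kcnq5 1.49. That term passed for no gene named for CA1 versus DG.

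In the young rats, the highest value of Kcnq3 in CA3 was 931, with the next rat at 652, a gap of 0.588 of the range of 10 rats. It was the 1 case in 15 sets of young values looked at, and chance flags about 1 set in 20.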

How the results depend on the processing

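The main counts of called genes were 24, 37 and 36 between CA1 and CA3, CA1 and DG, and CA3 and DG. In R9 rats alone, the counts were 9 for CA1 against CA3 and 22 for CA1 against DG, fewer by over 1.5 times, with fewer libraries tested. Every other alternative stayed within 1.5 times of these counts. With the rat as a replicate block, the paired counts were 25, 38 and 39. The shares of all genes called in these alternative fits are not given here, so a change in count is not read as particular to these genes.

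Signs turned in R9 rats alone for CA1 against CA3 in Kcnk16 (0.27), Kcna1 (0.41) and Kcnj4 (-0.0199), and for CA3 against DG in Kcnh4 (0.12), Kcna5 (0.0604), Kcnk16 (-0.22) and Kcnq5 (-0.46). For AI against AU, signs turned in R1-R2 rats alone for Kcnk1 (-0.0260) and Kcnq5 (0.0370) in CA1, Kcnab2 in CA3 (-0.27) and Kcnab2 in DG (-0.00988). Without the mismatched libraries, Kcnab2 in CA3 turned to -0.0447. The term for the series was fitted only for the subfield comparisons, and the cause of these turns was not tested.

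For age, cognitive status and the differences of these effects between subfields, 0 genes were called in every alternative run, including the fits without a replicate block. At these group sizes, a p over the threshold does not show equal expression, and low genes such as Kcnk16 and Kcne3 rest on few reads.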
